A study of Homo sapiens with 19 samples.

Results

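CASP14, GFRA2, CYTIP, CPE and GPRC5C are 5 of the 23441 genes of the count table, selected on their own RNA counts, as genes with a large rise or fall in 786-O cells that overexpress HIF-2α against control cells. CASP14, GFRA2, CYTIP and CPE were chosen for a rise and GPRC5C for a fall, and all 5 were among the 14225 genes that passed the filter on low counts. 786-O is an established line of clear cell renal carcinoma that lacks functional VHL and makes HIF-2α but no full-length HIF-1α, and every pool carries these defects. Cells were transduced with lentivirus holding the empty bicistronic vector (control, pRRL), HIF-1α (pRRL-HIF-1α) or HIF-2α (pRRL-HIF-2α), each followed by an IRES and EGFP, and grown as infected pools. PolyA+ RNA was sequenced from 3 libraries per pool, and ChIP-seq gave 7 lists of peaks, 1 per antiserum and pool. No source used here says that the 3 libraries of a pool came from separate cultures, so the p-values measure the spread between these libraries, which may be technical.

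HIF transcription factors pair an α subunit, whose stability VHL controls, with the constitutive HIF-1β subunit (ARNT), and the pair binds the HRE core (ACGTG or GCGTG) near or far from the genes it regulates. In clear cell renal carcinoma the loss of VHL leaves HIF-α subunits active at normal oxygen. The 5 genes have different known roles. CPE trims basic residues from prohormones, CASP14 is a caspase of cornifying skin, CYTIP tethers cytohesins in leukocytes, GPRC5C is an orphan receptor of the retinoic acid-inducible GPRC5 family and GFRA2 is the co-receptor for neurturin.

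Library totals ranged from 27852754 to 54287621 counts, and the shallowest library was HIF-2α replicate 2. EPAS1, which encodes HIF-2α and whose counts include the viral cDNA, ranged from 162 to 456 CPM (counts scaled by library total and TMM factor) in control, from 397 to 627 CPM in HIF-1α and from 880 to 3244 CPM in HIF-2α cells, with the highest value in HIF-2α replicate 2. HIF1A ranged from 30.4 to 152 CPM, from 171 to 1682 CPM and from 15.3 to 30.4 CPM in the same pools, so that both viruses matched their labels, and ARNT ranged from 33.1 to 69.9 CPM over the 9 libraries. Libraries with the same replicate number deviated from their pool means together (correlations of 0.348 to 0.652 over 9 pairs, against -0.478 to 0.0281 over 18 pairs with different numbers). The 8 genes listed for 786-O, such as PAX8 and VIM, all averaged above 1 CPM in control and HIF-1α cells. In HIF-2α cells CA9 alone averaged under 1 CPM. Its control mean rested on replicate 3, with 0, 0.171 and 14.3 CPM in control replicates 1 to 3. The HIF-2α libraries had 0.120, 0.105 and 0.694 CPM. Of the 6 keratinocyte markers only KRT10 averaged above 1 CPM, of the 6 leukocyte markers only ITGB2, and of the 5 neuroendocrine markers only SYP, in control cells. KRT14 and CD3E had 0 counts in all 9 libraries. In such bulk samples fewer cells of a type and less RNA per cell cannot be told apart.

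**Figure D1:**
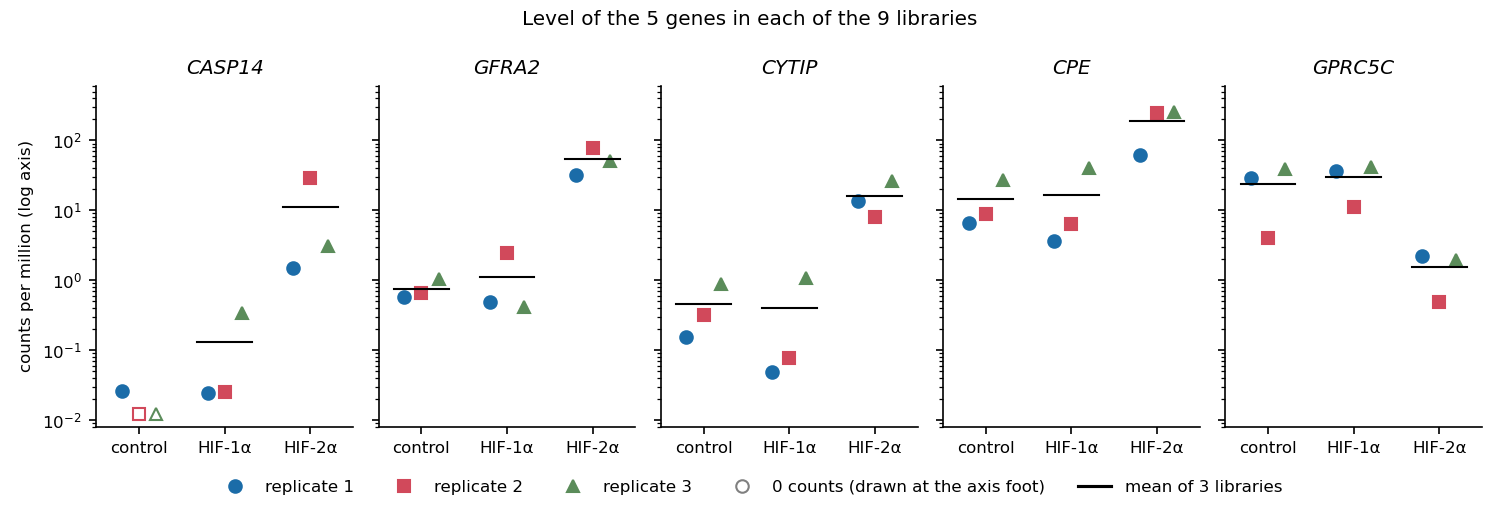
Each panel plots the level of 1 gene in CPM on a log axis, with 1 point per library, the colour and shape giving the replicate number and the line the mean of 3 libraries. For CASP14, GFRA2, CYTIP and CPE the 3 HIF-2α libraries lie above the other 6, and for GPRC5C they lie below them, with HIF-2α libraries of 0.488 to 2.21 CPM and the lowest control library at 4.07 CPM.

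Because the contrast of HIF-2α overexpressing with control cells chose the 5 genes, their values in it are given as a description. The groups of libraries did not overlap for any of the 5 (4 higher and 1 lower), which was also true of 853 genes higher (6% of the genes tested) and 738 genes lower (5.19%). In edgeR's quasi-likelihood test with no term for the replicate number, 0 genes (0%) reached an adjusted p under 0.05, 838 had an unadjusted p under 0.05, and DESeq2 called 65. With the replicate number as a block edgeR called 38 genes (0.267%). When genes were ranked that did not overlap and whose higher pool averaged 5 CPM or more, CASP14, GFRA2, CYTIP and CPE held the highest log2 fold changes of the fit without the block, 9.87, 6.14, 5.12 and 3.71, followed by ACKR3, a chemokine receptor, at 3.54 and PRIMA1, which anchors acetylcholinesterase in membranes, at 3.23. GPRC5C (-3.92) stood between NTRK3, a neurotrophin receptor (-4.18), and the metalloproteinase gene ADAMTS15 (-3.68). Of those ranked, 13 genes higher and 13 lower also passed the threshold in the fit with the block. This set is narrower than the 643 and 545 ranked without it. In it ACKR3 (3.85) ranked just above CPE (3.83). ADAMTS15 (-3.88) had the largest fall, ahead of GPRC5C (-3.75) and the non-coding FLJ22447 (-3.28). The same contrast chose the 5 genes, so their place in this set is no test of them.

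CPE encodes carboxypeptidase E, an exopeptidase of the secretory pathway. It lies on the plus strand at chr4:166282346-166419699 (GRCh37, 137 kb, 5 annotated start sites). In control cells it had 6.55, 8.93 and 27.4 CPM in replicates 1 to 3. In HIF-1α cells it had 3.58, 6.38 and 39.8 CPM. In HIF-2α cells it had 61.9, 243 and 257 CPM. Each HIF-2α library exceeded the highest of the other 6, and replicate 3 was the highest in every pool. Within replicate numbers the HIF-2α value was 9.46, 27.2 and 9.39 times the control value. The mean was 14.3 ± 11.4 CPM (SD, n = 3) in control and 187 ± 109 CPM (SD, n = 3) in HIF-2α cells, the fitted log2 fold change being 3.71 (SE 0.98) without and 3.83 (SE 0.46) with the block.

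In the overexpressing cells CPE had a peak of HIF-2α with its midpoint 0.834 kb upstream of the 5′-most annotated start, and the HIF-1β peak, 0.97 kb upstream, shared 2364 of its 2500 bp. Since the peak is closest to a start of CPE itself, the 300 bases around its midpoint are shown (chr4:166281363-166281662, plus strand, GRCh37), with the HRE core, searched as ACGTG and GCGTG on both strands, in capitals. They held 2 matches and no annotated exon, against at least 1 match in 45.7% of the 5283 windows of that list.

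CPE HIF-2α peak: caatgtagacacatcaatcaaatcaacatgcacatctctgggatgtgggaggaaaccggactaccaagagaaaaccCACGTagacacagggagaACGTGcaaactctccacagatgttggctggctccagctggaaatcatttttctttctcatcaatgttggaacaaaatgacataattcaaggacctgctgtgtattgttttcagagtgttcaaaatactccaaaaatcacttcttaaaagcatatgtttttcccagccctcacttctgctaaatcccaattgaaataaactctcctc

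The start of CPE that RefSeq gives lies elsewhere, 18.65 kb downstream of that midpoint. The 250 bases before it, taken from the RefSeq promoter table (GRCh38) and found by exact match at chr4:166299910-166300159 of GRCh37, held 3 matches to the HRE core (capitals), and 43.2% of all 35116 RefSeq promoters held at least 1 over the same length. No peak of any of the 7 lists lay there.

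CPE RefSeq promoter: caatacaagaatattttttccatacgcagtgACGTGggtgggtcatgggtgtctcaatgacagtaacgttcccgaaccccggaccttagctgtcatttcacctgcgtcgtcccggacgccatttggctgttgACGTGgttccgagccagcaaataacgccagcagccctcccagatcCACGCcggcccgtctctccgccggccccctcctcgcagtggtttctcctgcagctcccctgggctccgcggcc

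CASP14 encodes caspase-14, a protease of the upper epidermis that takes part in the breakdown of filaggrin. It lies on the plus strand at chr19:15160291-15169104 (8.814 kb, 2 start sites). In control cells it had 1, 0 and 0 counts in replicates 1 to 3, which is 0.0259, 0 and 0 CPM. In HIF-1α cells it had 1, 1 and 18 counts, or 0.0245, 0.0253 and 0.335 CPM. In HIF-2α cells it had 62, 840 and 121 counts, or 1.49, 29.3 and 3.11 CPM. The gene was at or near 0 in 5 libraries and above 1 CPM in the HIF-2α libraries alone, whose highest value was 19.6 times their lowest. EPAS1 was also highest in HIF-2α replicate 2, and its part in the spread of CASP14 was not tested.

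For CASP14 a fold change rests on the single control count. Summed over the pools the HIF-2α value was 1052 times the control value, with an exact 95% interval of 188 to 41580 that covers counting error only. In replicate 1, on that count, the ratio was 57.7 (9.98 to 2315), and with the empty control libraries set to the floor of 3 counts per library the value was at least 343-fold higher in replicate 2 and at least 39.8-fold higher in replicate 3. Against HIF-1α cells the summed ratio was 62.8 (40.5 to 103). The fitted log2 fold change of 9.87 depends on the prior count and is no bound.

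The nearest HIF-2α peak of the overexpressing cells lay 781.7 kb from a start of CASP14, but a HIF-1β peak of those cells lay 18.2 kb downstream of its nearest start, 14.8 kb beyond its end and 9.113 kb from the olfactory receptor gene OR1I1. No other list had a peak that shared a base with it. The 250 bases before the RefSeq start (chr19:15160041-15160290), shown because the gene with the largest rise has no HIF-2α peak near, held 0 matches to the HRE core and 1 to the AP-1 motif, TGACTCA or TGAGTCA (capitals), which 4.2% of RefSeq promoters held. The counts are for these bases alone and not for any other site. The 300 bases around the midpoint of the HIF-1β peak held 4 matches to the HRE core and 0 to AP-1. Of the 3431 windows of that list, 66.0% held at least 1 match to the HRE core.

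CASP14 RefSeq promoter: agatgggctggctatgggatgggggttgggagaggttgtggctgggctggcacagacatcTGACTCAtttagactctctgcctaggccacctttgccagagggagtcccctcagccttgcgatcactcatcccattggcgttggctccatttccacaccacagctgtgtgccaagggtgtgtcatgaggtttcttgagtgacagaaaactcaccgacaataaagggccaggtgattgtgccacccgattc

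CYTIP encodes the cytohesin-interacting protein, a scaffold known from leukocytes that moves cytohesin-1 away from the membrane and so acts on adhesion. It lies on the minus strand at chr2:158271131-158345473 (74.34 kb, 8 start sites). Control cells had 0.155, 0.313 and 0.886 CPM in replicates 1 to 3. HIF-1α cells had 0.0490, 0.0759 and 1.06 CPM. HIF-2α cells had 13.4, 8.02 and 26.0 CPM. Replicate 3 was the highest in every pool, and the lowest HIF-2α library stood well clear of the highest of the other 6. The HIF-2α value was 86.2, 25.6 and 29.4 times the control value in replicates 1 to 3, and the fitted log2 fold change was 5.12 (SE 1.10) without and 5.36 (SE 0.58) with the block. CYTIP was lowest in HIF-2α replicate 2, where CASP14, GFRA2 and EPAS1 were highest.

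CYTIP had a HIF-2α and a HIF-1β peak of the overexpressing cells 19.33 and 19.43 kb downstream of the nearest of its starts, in an intron, which shared 2394 bp. The nearest peak of the other 5 lists was 295.5 kb away. The 300 bases around the HIF-2α midpoint (chr2:158325865-158326164, minus strand) held 1 match to the HRE core (capitals) and none to AP-1.

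CYTIP HIF-2α peak: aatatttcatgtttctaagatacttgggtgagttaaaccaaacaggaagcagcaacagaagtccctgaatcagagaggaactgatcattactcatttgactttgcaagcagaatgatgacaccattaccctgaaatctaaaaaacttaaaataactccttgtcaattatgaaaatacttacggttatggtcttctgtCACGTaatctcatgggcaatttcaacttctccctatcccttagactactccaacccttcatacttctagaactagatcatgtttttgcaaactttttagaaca

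GPRC5C encodes an orphan G protein-coupled receptor of class C, a family known for induction by retinoic acid. It lies on the plus strand at chr17:72420990-72447792 (26.8 kb, 11 start sites). Control cells had 28.6, 4.07 and 38.7 CPM in replicates 1 to 3. HIF-1α cells had 36.0, 11.0 and 41.9 CPM. HIF-2α cells had 2.21, 0.488 and 1.95 CPM. Replicate 2 was the lowest in every pool, and it alone brought the control pool near the HIF-2α values. The control value was 12.9, 8.33 and 19.8 times the HIF-2α value in replicates 1 to 3, and the fitted log2 fold change was -3.92 (SE 0.87) without and -3.75 (SE 0.31) with the block.

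GPRC5C was the only 1 of the 5 with a peak of every list within 50 kb of a start. All 7 midpoints lay inside the gene, 0.005 to 0.735 kb from an annotated start, 4 in an intron and 3 in a UTR. The HIF-2α peak of the overexpressing cells shared 2484 of its 2500 bp with that of HIF-2α in control cells. The 300 intronic bases around its midpoint (chr17:72426993-72427292, plus strand) are shown because the site was also listed in control and HIF-1α cells, where the gene was higher, and they held 0 matches to the HRE core or AP-1. The nearest HRE core was 210 bp from the midpoint, and the 2500 bp held 14, where 94.0% of the windows of this list held at least 1.

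GPRC5C HIF-2α peak: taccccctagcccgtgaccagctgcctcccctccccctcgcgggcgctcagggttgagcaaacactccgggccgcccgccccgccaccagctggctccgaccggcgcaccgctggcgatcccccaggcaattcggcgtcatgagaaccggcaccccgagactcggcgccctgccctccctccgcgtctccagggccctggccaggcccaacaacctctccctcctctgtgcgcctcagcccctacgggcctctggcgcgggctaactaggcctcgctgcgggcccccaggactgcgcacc

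GFRA2 encodes a GPI-anchored co-receptor that binds neurturin and signals through RET. Control cells had 0.569, 0.654 and 1.04 CPM in replicates 1 to 3. HIF-1α cells had 0.490, 2.46 and 0.410 CPM. HIF-2α cells had 31.8, 78.1 and 50.4 CPM. Of the 4 genes that were higher, GFRA2 varied least within the HIF-2α pool, its highest library being 2.46 times its lowest. The HIF-2α value was 55.8, 119 and 48.3 times the control value in replicates 1 to 3, and the fitted log2 fold change was 6.14 (SE 0.76) without and 6.01 (SE 0.52) with the block. The highest library of each virus pool was replicate 2, which was not so in the control pool.

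Cells that re-expressed HIF-1α were compared with the same 3 control libraries. The HIF-1α libraries played no part in the choice of the genes but the control libraries did, so the values of the 5 in this contrast too are given without a test. For all 5 the libraries overlapped (0 of 5 higher or lower throughout), where 12.9% of the genes tested were higher and 11.2% lower in every HIF-1α library. The log2 fold changes in edgeR without the block were 0.55 for GFRA2 (SE 0.66), -0.14 for CYTIP (SE 1.01), 0.22 for CPE (SE 0.88) and 0.32 for GPRC5C (SE 0.76). For CASP14 the fitted value of 3.53 rested on the 18 counts of HIF-1α replicate 3, without which it was 1.21. Over all genes edgeR called 0 (0%) in that fit, with 2757 at an unadjusted p under 0.05 and 753 called by DESeq2, and 1132 (7.96%) with the block. GPRC5C was higher in 3 of 3 pairs (log2 fold change with the block 0.59, SE 0.27). CYTIP was lower in 2 of 3 pairs, 4.12 times (1.09 to 23.01, counting error only) in replicate 2 and 3.17 times (0.566 to 32.1) in replicate 1, and higher in replicate 3 (1.20 times), and CPE was likewise lower in 2 pairs (1.83 and 1.40 times in replicates 1 and 2) and higher in replicate 3 (1.46 times). In the fit without the block, 2 standard errors around these values reach beyond 2-fold in both directions for CYTIP, CPE and GPRC5C and upward for GFRA2.

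**Figure D2:**
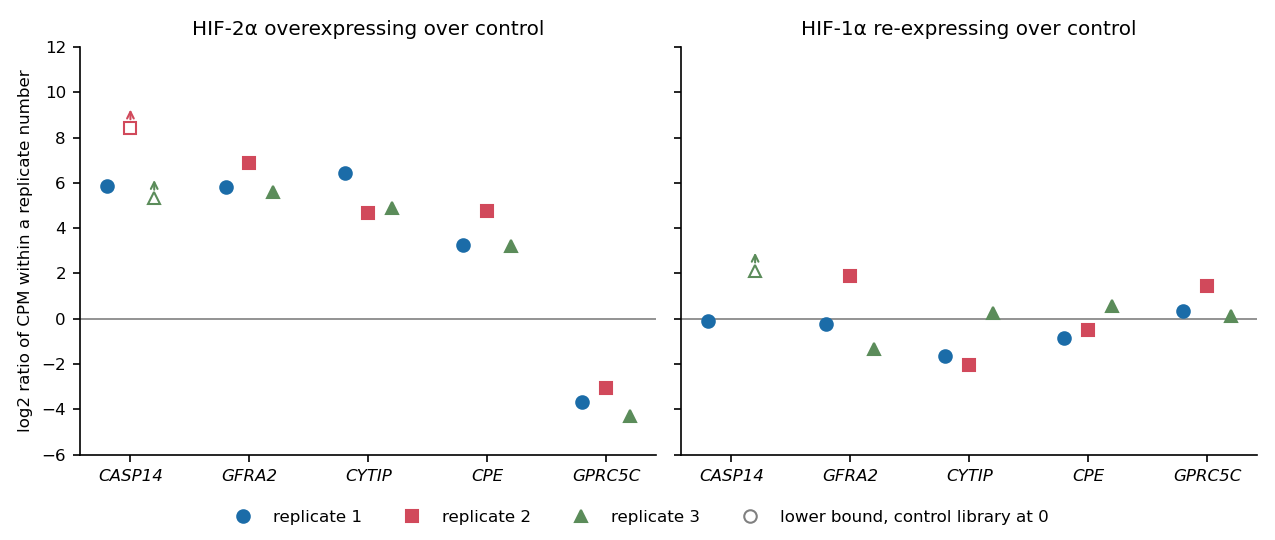
Each point is the log2 ratio of the CPM of a virus pool to the control library of the same replicate number, for HIF-2α on the left and HIF-1α on the right, and open points with arrows are lower bounds where the control library had 0 counts. For GFRA2, CYTIP, CPE and GPRC5C all 3 pairs lie on the same side of 0 on the left, at 3.23 or above or at -3.06 or below, and between -2.04 and 1.91 on the right. The HIF-1α pair of replicate 2 for CASP14, with 1 and 0 counts, is not drawn.

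The contrast of HIF-2α with HIF-1α cells uses the HIF-2α libraries that chose the genes, so its values are again a description. Here 4 of the 5 were higher and GPRC5C lower without overlap, as were 8.82% and 10.4% of the genes tested. The HIF-2α value was 64.8, 31.8 and 123 times the HIF-1α value for GFRA2 and 17.3, 38.1 and 6.45 times for CPE in replicates 1 to 3. For CYTIP it was 273 (75.2 to 2260), 106 (35.7 to 516) and 24.5 times, on HIF-1α counts of 2, 3 and 57, with exact 95% intervals of counting error for the low counts. The HIF-1α value of GPRC5C was 16.2, 22.5 and 21.5 times the HIF-2α value, the narrowest range of pair ratios among the 5.

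Per kb of annotated exon, CPE had the highest level of the 5 in HIF-2α cells, 60.0 ± 34.9 CPM per kb (SD, n = 3), followed by GFRA2 at 9.25 ± 4.03, CYTIP at 4.67 ± 2.73, CASP14 at 3.32 ± 4.59 and GPRC5C at 0.206 ± 0.124. The ranges of CYTIP (2.37 to 7.68) and CASP14 (0.439 to 8.62) overlapped each other and that of GFRA2 (5.50 to 13.5), so that their order is not beyond the spread. In control cells CPE (4.58 ± 3.65) and GPRC5C (3.16 ± 2.36) overlapped at the top, CYTIP (0.133 ± 0.114) and GFRA2 (0.131 ± 0.0436) overlapped in the middle, and CASP14 was lowest at 0.00254 ± 0.00439. Thus GPRC5C was among the most abundant of the 5 in control cells and the least abundant in HIF-2α cells.

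HIF-2α peaks of the overexpressing cells lay within 50 kb of a start for 3 of the 5 genes (CYTIP, CPE and GPRC5C), as for 28.4% of the tested genes placed on the annotation, and HIF-1β peaks of those cells for 4 of the 5 (all but GFRA2), as for 30.1%. Within 10 kb both lists had peaks for CPE and GPRC5C alone (14.5% and 16.2% of genes). Peaks of HIF-2α in control cells lay within 50 kb of a start for GPRC5C alone (12.1% of genes). Those of HIF-1α in the HIF-1α cells also lay within 50 kb for GPRC5C alone (50.6%). With 1 library per list and no score in the files, these counts have no error and no test. CPE had nothing within 2966 kb in the other 5 lists. For CASP14 HIF-1β of control and HIF-1α cells and HIF-1α had peaks 52.31 to 52.61 kb downstream, next to a start of SYDE1.

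GFRA2, on the minus strand at chr8:21547910-21669869 (122 kb, 7 start sites), had no peak of any list within 100 kb of a start. The HIF-2α and HIF-1β peaks of the overexpressing cells and the HIF-1β peak of the control cells shared bases at a site 103.8 to 104.3 kb downstream of its nearest start, 6.078 to 6.582 kb beyond its end, and no other annotated gene has a start closer to that site. HIF-2α was not listed there in control cells, whose nearest HIF-2α peak was 1238 kb away. The window of the HIF-2α peak held 2 matches to the HRE core within 300 bases.

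**Figure D3:**
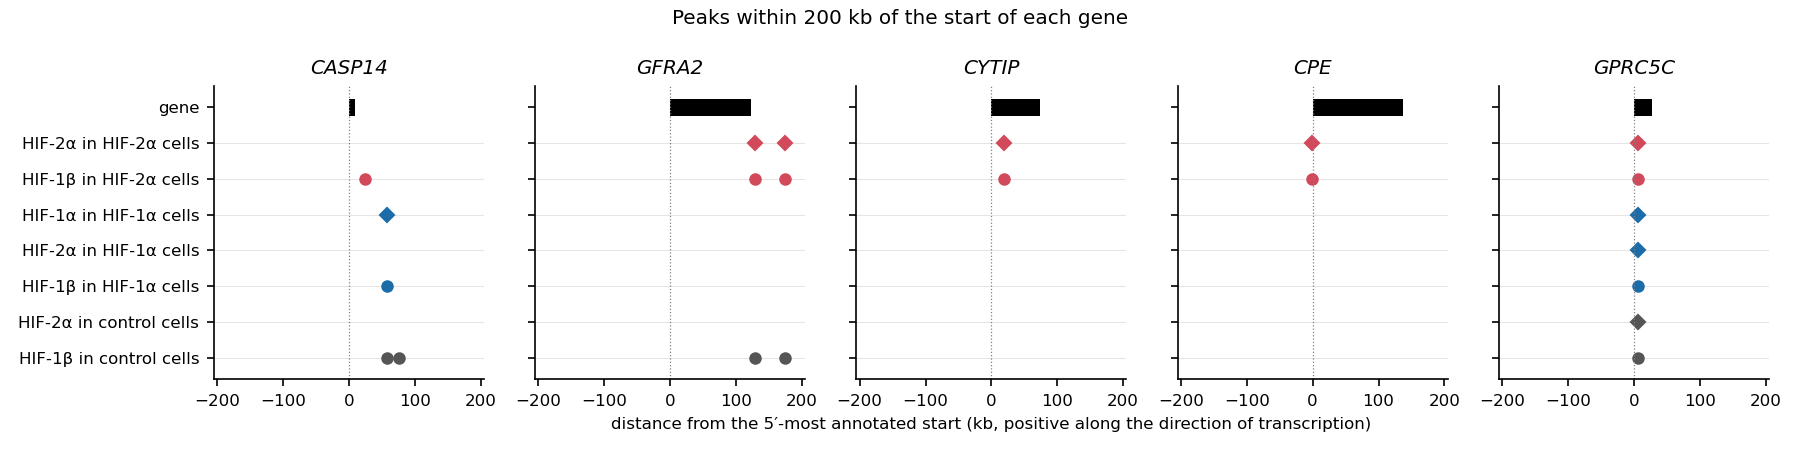
Each panel plots the peaks of 7 lists within 200 kb of the 5′-most annotated start of a gene, with diamonds for the α subunits, circles for HIF-1β, colours for the pool and a black bar for the gene (at least 3 kb wide as drawn). CPE and CYTIP have peaks of the HIF-2α overexpressing cells only, GPRC5C has all 7, GFRA2 has peaks past its end and CASP14 has no HIF-2α peak in the range.

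To see whether the relatives and partners of these genes moved with them, 6 lists of genes of the same families or pathways, without the 5 genes themselves, were examined in the same fits. For HIF-2α against control cells 0 genes of the 6 lists passed the threshold in edgeR, with or without the block, and every list included both directions. DESeq2 called none without the block and 5 with it, ARTN and PCSK6 higher and DHRS3, GPRC5B and the retinal dehydrogenase gene ALDH1A1 lower. The median log2 fold change with the block was -0.21 for 9 tested caspases, -0.17 for 13 genes of the cornified envelope and filaggrin processing, 0.04 for 6 of the GDNF ligands and receptors, -0.11 for 11 cytohesins and ARF GTPases, 0.37 for 9 of prohormone processing and granins and -0.56 for 13 GPRC5 receptors and retinoic acid genes, beside -0.01 over all genes tested.

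Among caspases the log2 fold changes with the block ran from -0.79 to 0.20, and the most abundant, the initiators CASP2 and CASP8, had 62.5 and 60.7 CPM in control and 72.0 and 61.2 CPM in HIF-2α cells. FLG, which encodes the filaggrin that caspase-14 processes, was measured at 117 ± 113 CPM (SD, n = 3) in control and 153 ± 133 CPM (SD, n = 3) in HIF-2α cells (log2 fold change with the block 0.40, adjusted p of 0.445 in edgeR). The loricrin and involucrin genes, LOR and IVL, had 0 counts in all libraries. For GFRA2, RET and its ligand NRTN did not pass the filter, with means of at most 0.0395 and 0.123 CPM in any pool, while the related co-receptor GFRA1 had 142 CPM in control and 131 CPM in HIF-2α cells. GDF15, which acts through another receptor of this family, had 525, 57.0 and 71.2 CPM in control replicates 1 to 3. In HIF-2α cells it had 156, 53.9 and 140 CPM. Control replicate 1 alone was above all 3 HIF-2α libraries (log2 fold change with the block -0.25, adjusted p of 0.829 in edgeR). ARTN, another GDNF family ligand, had 18.0 and 48.3 CPM (log2 fold change with the block 1.83, adjusted p of 0.146 in edgeR).

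All 4 cytohesins were measured and none passed, and CYTH1, the known partner of CYTIP, had 31.2 CPM in control and 31.8 CPM in HIF-2α cells. ARF4 and ARF1, the most abundant of the list, had 552 and 472 CPM in control and 632 and 442 CPM in HIF-2α cells. Of the prohormone list, PCSK6, a convertase of the constitutive secretory pathway, had 0.880, 1.11 and 3.02 CPM in control and 3.56, 16.7 and 15.4 CPM in HIF-2α cells, the highest log2 fold change of the lists (2.90 with the block, SE 0.58, adjusted p of 0.0903 in edgeR). PCSK1 and PCSK2, the convertases that act with CPE in neuroendocrine granules, had means of at most 0.0377 CPM in any pool. Of the GPRC5 list, GPRC5A had 18.7 and 10.1 CPM and GPRC5B 34.3 and 19.8 CPM, with adjusted p of 0.303 and 0.229 in edgeR with the block.

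**Figure D4:**
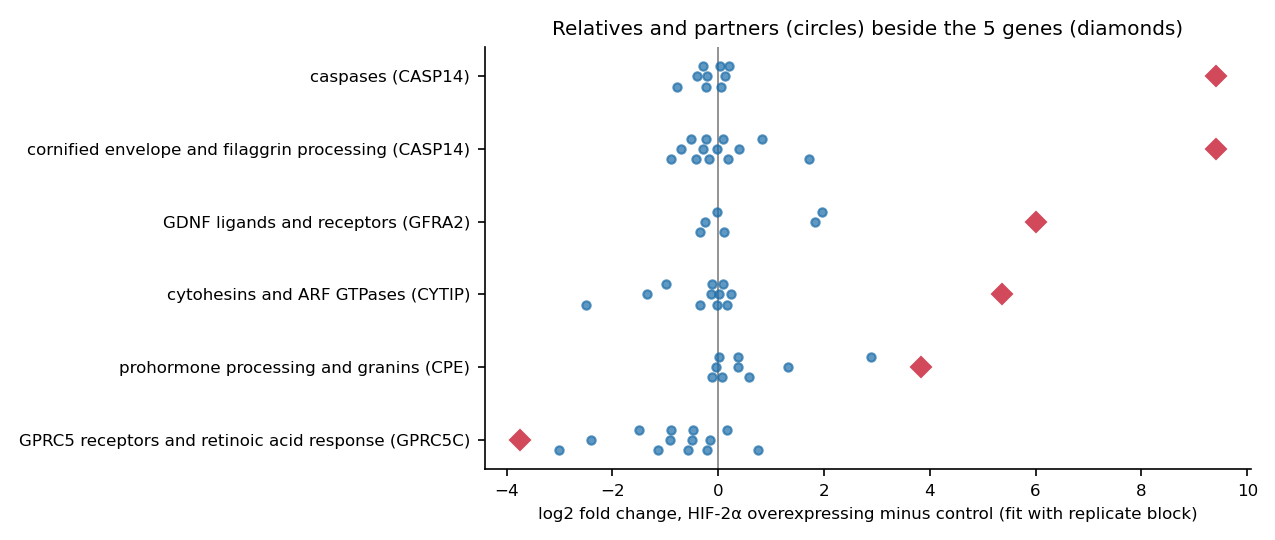
Circles give the log2 fold change of each tested gene of 6 lists, HIF-2α overexpressing minus control cells in the fit with the replicate block, and diamonds the gene that each list belongs to. The diamonds, chosen for this contrast, lie outside the range of their lists, which spans -0.79 to 0.20 for the caspases and -3.00 to 0.76 for the GPRC5 list.

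Against HIF-1α cells, where edgeR called 7 genes without the block (0.0492%) and 843 with it (5.93%), 0 genes of the lists passed without the block. With the block edgeR called 12, and 5 of 13 genes of the GPRC5 list fell, which were GPRC5A (log2 fold change -1.92, adjusted p of 0.0182), GPRC5B (-1.49, 0.0416), the retinoid enzymes DHRS3 (-2.60, 0.0237) and CYP26B1 (-2.16, 0.0466), and the retinol transporter gene STRA6 (-3.49, 0.0219). PCSK6 (2.81, 0.026) and FURIN (0.84, 0.0371) rose and PCSK5 (-1.63, 0.042) fell among the convertases. Of the cornified list FLG (0.97, 0.0456) and the transglutaminase TGM5 (1.81, 0.0499) rose, and periplakin (PPL, -3.41, 0.0172) and the deiminase PADI1 (-1.79, 0.00887) fell, while caspases, cytohesins and the GDNF list had none in this fit. STRA6 rested on 3 counts summed over the HIF-2α libraries, and its mean was at most 0.318 CPM in any pool. CYP26B1 had 0.294, 0.532 and 2.51 CPM in HIF-1α replicates 1 to 3. Its means were 0.269 CPM in control and 0.214 CPM in HIF-2α cells. PPL was also highest in HIF-1α replicate 3, with 1.13, 1.32 and 9.83 CPM in replicates 1 to 3. With a replicate number removed the blocked fit called 2 to 4 of the list genes. In HIF-1α against control cells with the block PPL (2.52, adjusted p of 0.0405 in edgeR), PADI1 (1.09, 0.0452) and PCSK5 (1.51, 0.0454) rose and no other gene of the lists passed in this fit, and with a number removed none did.

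The nearest genes on either side were read to see whether they moved as well. CPE lies 18.03 kb from MSMO1, a sterol synthesis gene, which had 426 ± 163 CPM (SD, n = 3) in control and 537 ± 102 CPM (SD, n = 3) in HIF-2α cells (log2 fold change 0.33, SE 0.31, adjusted p of 0.87 in edgeR), and 374.7 kb from TLL1 (0.746 and 1.04 CPM, adjusted p of 0.894). ACVR1C, 37.81 kb from CYTIP, had 0.185 ± 0.155 and 0.788 ± 0.674 CPM (n = 3 each, log2 fold change 2.08, SE 0.78, adjusted p of 0.824 in edgeR). LZTS1, the nearest gene of the table past the end of GFRA2 at 1386 kb, had 1.68 and 0.818 CPM (adjusted p of 0.844 in edgeR). The 6 other protein-coding or pseudogene neighbours (CCDC105 and OR1I1 beside CASP14, DOK2 beside GFRA2, FAM133DP beside CYTIP, GPR142 and CD300A beside GPRC5C) did not pass the filter. No annotated gene overlapped an exon of the 5 genes, and MIR578, inside CPE, had a mean of at most 0.00856 CPM in any pool.

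The genes whose log2 CPM followed each of the 5 most closely over the 9 libraries were listed by Pearson's r, as a description, since the 9 points share pools, replicate numbers and depth. CASP14 was followed by CLCC1 (0.972), SGCB (0.960) and SYN3 (0.952), and GFRA2 by F3, the tissue factor gene (0.974), SIGLEC6 (0.965) and SGCB (0.954). SYN3 and SIGLEC6 were near the floor, with at most 0.942 and 2.20 CPM in any library. F3 had 78.3, 86.7 and 79.2 CPM in control, 74.2, 225 and 55.0 CPM in HIF-1α and 397, 506 and 558 CPM in HIF-2α cells, so that it shared with GFRA2 the single high HIF-1α library. CYTIP was most like CPE (0.953), then ROR2, a receptor for Wnt5a (0.949) and GPR176 (0.937). CPE was most like PCSK6 (0.977), then HTRA1, a secreted serine protease gene (0.971) and ROR2 (0.968). With the pool means removed, r was lower for each of these genes. It was 0.961, 0.969 and 0.926 for the genes listed with CPE and 0.835, 0.835 and 0.799 for those with CYTIP, in the order given. With CASP14 it was 0.932 for CLCC1, 0.694 for SGCB and 0.734 for SYN3, and with GFRA2 0.901 for F3, 0.486 for SIGLEC6 and 0.668 for SGCB. The largest drops were those of SIGLEC6, SGCB and SYN3, and it was a difference between pools that chose the 5 genes.

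GPRC5C was most like IGFBP6, which encodes a binding protein of insulin-like growth factors (0.973), the chemoattractant receptor gene GPR15 (0.964) and TMC6 (0.958), with 0.920, 0.912 and 0.922 once the pool means were removed. GPR15 had 8.07, 2.28 and 7.01 CPM in control, 10.7, 2.89 and 5.75 CPM in HIF-1α and 1.47, 0.593 and 1.95 CPM in HIF-2α cells. Like GPRC5C it was lowest in replicate 2 of each pool. Replicate numbers thus split the genes. On the mean log2 scale CYTIP and CPE deviated from their pool means by 1.52 and 1.32 in replicate 3, GPRC5C by -1.53 in replicate 2, and the largest deviations of CASP14 (-0.68 in replicate 1) and GFRA2 (0.69 in replicate 2) were smaller. For CASP14 that mean includes control and HIF-1α libraries at or near 0 counts, and its HIF-2α libraries differed 19.6-fold.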

How the data were processed

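PolyA+ RNA-seq (9 libraries) and ChIP-seq (7 lists of peaks, 1 library each) of 786-O pools were analysed. Per the labels and methods, the authors deposited raw counts per UCSC gene symbol, not normalized, from TopHat2 2.0.8b, Bowtie 1.0.0 and HTSeq 0.5.4p3 (strand setting not given in the sources used here), and 2500 bp peak windows on GRCh37 without scores, found by both T-PIC and MACS. The ChIP depth is unknown. Counts were fitted in edgeR 4.0.16 (R 4.3.3) with TMM factors, filterByExpr and the quasi-likelihood test on all 9 libraries, with the pool as the only term and Benjamini-Hochberg adjusted p-values (threshold 0.05). The same replicate numbers paired the libraries (correlations in the report), so a fit with the number as a block is given where it changes a call. Alternatives were DESeq2 1.42.0, RLE factors, no filter, 2-pool fits and leaving out libraries. CPM use TMM-scaled totals. Midpoints were measured to every GENCODE v44lift37 start site (22020 of 23441 symbols placed, 1366 of them by an older symbol), and sequences read from GRCh37 (Python 3.11.15). The edgeR fits were tested on simulated data with a spread set in advance. For the fit without the block these data held no replicate effect, so they do not test the calls reported here. RefSeq promoters matched 3 of the 5 genes. The members and lists were chosen with earlier results of these data known. Named genes were the 5 members, EPAS1, HIF1A and ARNT, per member the 3 genes of highest r, the nearest and overlapping genes, 2 genes on either side in the ranking, and of each list up to 4 called genes or the most abundant 2, and markers, GPRC5B, ARTN, ALDH1A1, CYTH1, RET, NRTN, PCSK1, PCSK2, LOR, IVL and SYDE1 were named after their values were seen. A gene of the ranking and a peak sequence are not reported here.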

Additional observations from a re-analysis of the deposited data

How the results depend on the processing

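Counts of called genes depended on the fit. For HIF-2α against control cells edgeR called 0, DESeq2 65, edgeR with the replicate block 38 and DESeq2 with it 487, no filter on low counts gave 1 and the fit of the 2 pools alone 2. Leaving out single libraries gave 0 to 2, and removing replicate numbers 1, 2 and 3 from the blocked fit gave 30, 9 and 7. For HIF-1α against control cells the counts were 0, 753 with DESeq2, 1132 with the replicate block, 3036 with DESeq2 and the block, and 295, 0 and 1 without numbers 1, 2 and 3. For HIF-2α against HIF-1α cells they were 7, 649, 843 and 1799, with 82 without the filter, 0 from the 2 pools alone, 0 to 29 without single libraries (29 without HIF-1α replicate 1, 14 without control replicate 3) and 334, 386 and 265 without the numbers. The block with a number removed and DESeq2 with the block were chosen after seeing the data, and the cause of these shifts was not tested.

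For HIF-2α against control cells, the contrast that chose them, the log2 fold changes of the 5 genes kept their direction in all 18 alternatives each. Their libraries did not overlap there, so leaving libraries out could not turn the direction, and the ranges are a description. They were 7.18 to 11.98 for CASP14, 5.66 to 6.44 for GFRA2 and 4.56 to 6.07 for CYTIP. For CPE the range was 3.23 to 4.59 and for GPRC5C -4.43 to -3.38. For HIF-1α against control cells the direction turned in some alternatives. CPE (0.22) was -0.18 with the replicate block, -0.23 with DESeq2 and the block, and -0.10 and -0.72 in the blocked fit without numbers 2 and 3. GFRA2 (0.55) was -0.82 in the blocked fit without number 2. Without single libraries the ranges were -1.52 to 1.10 for CPE, -0.78 to 0.96 for GFRA2, -2.80 to 0.80 for CYTIP and -0.20 to 0.85 for GPRC5C, and CASP14 (3.53) ranged from 1.21 without HIF-1α replicate 3 to 5.47 without control replicate 1, with 6.36 and 0.69 in the blocked fit without numbers 1 and 3. The fit of the 2 pools alone gave no value for CASP14 there. Of the family lists DESeq2 with the replicate block called 5 genes for HIF-2α and 10 for HIF-1α against control cells and 16 between the virus pools, where edgeR with the block called 0, 3 and 12, and DESeq2 without it 0, 1 and 6. With a window of 100 kb in place of 50 kb HIF-1α and HIF-1β peaks of control and HIF-1α cells were also counted for CASP14, and with 10 kb those of the overexpressing cells were lost for CYTIP (HIF-2α and HIF-1β) and CASP14 (HIF-1β). With a prior count of 0.25 WISP1 replaced SYN3 beside CASP14. At 0 to 18 counts outside the HIF-2α pool, CASP14 is limited by depth.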
